A study of Mus musculus with 16 samples.

Results

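Sox2 binding in the Oct6-SK cocktail was compared between day 1 and day 5 of reprogramming. The day 1 library held 3242 Sox2 summits on chromosomes 1 to 19, X and Y and the day 5 library held 2669, together 5911 of the 227116 summits in the 13 libraries with summit lists. A summit is the position of strongest enrichment within a ChIP-seq peak. A day 1 summit was called kept when a day 5 summit lay within 100 bp of it and lost when none did, and a day 5 summit with no day 1 summit within 100 bp was called gained. By this rule 2915 sites were lost, 327 were kept and 2342 were gained.

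The cells were OG2 MEFs, embryonic fibroblasts of mice with a GFP reporter under control of the Oct4 gene. Both groups received pMX retroviruses for Sox2, Klf4 and Oct6 (Oct6-SK), and both were grown in the chemically defined medium iCD1, with day 0 set at the switch to that medium. The compared cocktails had Oct4 (Oct4-SK) or Oct4defSox2, an Oct4 mutated at the surface that contacts Sox2 (Oct4defSox2-SK), in place of Oct6. Oct4 S151M-SK and Oct6 M151S-SK, with proteins in which Oct4 and Oct6 exchange the residue at one position, each gave 1 day 1 library of the POU protein. Each group was 1 library made from a population of transduced cells, so the comparisons had no replicates and were made without p-values. Bracketed ranges are 95% intervals (Wilson for a share, Newcombe for a difference between shares) that cover counting error among sites only, and sites of 1 library are not replicates. The lists give no read counts, and the library statistics that the study reports were not used, so read depth was not compared here. For Sox2 the study's methods name antibodies of different suppliers without saying which library used which. A different depth, antibody or antibody recovery of the libraries cannot be told apart from a change in binding. The inputs and a ChIP of wild-type Oct6 were not analysed here.

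Sox2 is a transcription factor of the Sox family, whose HMG domain bends DNA at a short AT-rich word close to CCATTGT or CCTTTGT. In pluripotent cells it binds beside Oct4 at the SoxOct element, in which a Sox word stands directly beside an octamer (ATGCAAAT). Oct6, encoded by Pou3f1, is a POU factor of neural and glial cells and of the epiblast that favours palindromic elements on which POU proteins pair with each other, called MORE and, with 1 additional base in the centre, MORE+1.

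Sequences of a few sites of each class, chosen for their scores or for a motif they hold, show the elements the results turn on, and they do not stand for the make-up of a class. All are from GRCm38 (mm10), plus strand, 100 bp to either side of the summit, and capitals mark exact single Sox words (CCATTGT or CCTTTGT on either strand), SoxOct matches with at most 2 mismatches or MORE+1 matches with at most 1. The first 3 were among the 5 highest scoring kept sites, at chr14:118230363-118230563 (6.57 kb from the start of Sox21, intergenic), chr9:120149466-120149666 (0.141 kb from the start of Mobp) and chr11:85678684-85678884 (an intron of Bcas3).
Kept, near Sox21: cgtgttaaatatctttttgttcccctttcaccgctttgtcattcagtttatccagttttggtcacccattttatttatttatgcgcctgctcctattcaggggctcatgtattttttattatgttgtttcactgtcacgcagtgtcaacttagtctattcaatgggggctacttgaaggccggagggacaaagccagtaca
Kept, near Mobp: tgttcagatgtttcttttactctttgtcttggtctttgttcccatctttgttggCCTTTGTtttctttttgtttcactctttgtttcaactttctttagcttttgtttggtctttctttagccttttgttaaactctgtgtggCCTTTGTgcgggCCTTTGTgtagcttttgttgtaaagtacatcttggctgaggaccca
Kept, Bcas3 intron: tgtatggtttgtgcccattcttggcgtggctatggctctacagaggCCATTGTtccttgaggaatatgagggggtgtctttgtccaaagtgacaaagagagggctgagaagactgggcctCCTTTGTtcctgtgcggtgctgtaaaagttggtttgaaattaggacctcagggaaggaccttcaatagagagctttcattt
The Mobp window held the word CCTTTGT 3 times. The Bcas3 window held CCATTGT and CCTTTGT, and the Sox21 window held neither.

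Of the lost sites, the intergenic site at chr13:102600151-102600351 (93.3 kb from Cd180) and the intronic site of Adgrv1 at chr13:81469019-81469219 were among the 5 strongest. The lost site at chr8:48967222-48967422 (123 kb from Tenm3, intergenic) was the highest scoring lost site with a MORE+1 match, and was chosen after its values were seen.
Lost, near Cd180: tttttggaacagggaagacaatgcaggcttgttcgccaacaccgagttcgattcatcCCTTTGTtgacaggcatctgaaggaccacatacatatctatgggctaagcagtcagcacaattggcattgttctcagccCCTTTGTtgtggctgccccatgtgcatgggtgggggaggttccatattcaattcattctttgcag
Lost, Adgrv1 intron: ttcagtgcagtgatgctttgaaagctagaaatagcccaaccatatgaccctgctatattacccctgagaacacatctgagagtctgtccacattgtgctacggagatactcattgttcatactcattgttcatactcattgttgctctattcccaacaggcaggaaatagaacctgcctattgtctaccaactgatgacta
Lost, near Tenm3: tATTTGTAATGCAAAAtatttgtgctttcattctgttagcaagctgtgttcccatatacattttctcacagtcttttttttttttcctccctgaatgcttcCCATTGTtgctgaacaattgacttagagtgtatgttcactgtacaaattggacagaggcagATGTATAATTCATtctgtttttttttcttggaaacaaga
The window near Cd180 held CCTTTGT at 40 bp before and 39 bp after the summit. The window near Tenm3 held a MORE+1 match (ATGTATAATTCAT), a SoxOct match (ATTTGTAATGCAAAA) and CCATTGT at 4 bp from the summit. The Adgrv1 window held none of these.

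Of the gained sites, the intergenic site at chr2:101215466-101215666 (409 kb from Rag2) was the second highest scoring. The site at chr10:44716694-44716894 (188 kb from Prdm1, in an exon of the noncoding gene Gm47389) was the highest scoring gained site with a single Sox word, and was chosen after its values were seen.
Gained, 409 kb from Rag2: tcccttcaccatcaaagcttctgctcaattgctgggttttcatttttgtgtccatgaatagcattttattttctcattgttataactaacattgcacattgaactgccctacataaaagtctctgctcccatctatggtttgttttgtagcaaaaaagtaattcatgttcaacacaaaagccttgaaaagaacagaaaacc
Gained, 188 kb from Prdm1: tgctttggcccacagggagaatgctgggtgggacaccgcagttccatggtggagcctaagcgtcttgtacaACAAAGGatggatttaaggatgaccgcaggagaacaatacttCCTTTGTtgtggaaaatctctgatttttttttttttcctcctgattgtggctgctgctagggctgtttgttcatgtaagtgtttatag
The window near Prdm1 held CCTTTGT on the plus strand at 16 bp after the summit and on the minus strand at 26 bp before it.

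The highest scoring site with a SoxOct match in each class is shown for the composite element. It was at chr1:123519042-123519242 in an intron of Dpp10 for lost sites, at chr6:25033118-25033318 (76.9 kb from Tmem229a, intergenic) for kept sites and at chr10:39023556-39023756 in an intron of Lama4 for gained sites.
Lost, Dpp10 intron: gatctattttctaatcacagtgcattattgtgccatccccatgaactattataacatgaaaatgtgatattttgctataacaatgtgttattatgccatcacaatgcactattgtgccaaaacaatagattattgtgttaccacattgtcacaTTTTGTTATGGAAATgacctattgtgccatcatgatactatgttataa
Kept, near Tmem229a: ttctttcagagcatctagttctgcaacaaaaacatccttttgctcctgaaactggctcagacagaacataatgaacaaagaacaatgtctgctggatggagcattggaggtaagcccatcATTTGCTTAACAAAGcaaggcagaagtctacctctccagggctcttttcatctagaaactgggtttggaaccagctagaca
Gained, Lama4 intron: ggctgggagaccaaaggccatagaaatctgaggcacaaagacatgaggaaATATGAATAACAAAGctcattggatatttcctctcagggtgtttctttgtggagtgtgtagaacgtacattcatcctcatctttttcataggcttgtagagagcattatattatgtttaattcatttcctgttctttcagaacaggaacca
The kept match (CTTTGTTAAGCAAAT, minus strand) differed from the consensus at 1 base, and the lost match (TTTTGTTATGGAAAT, plus strand) and the gained match (CTTTGTTATTCATAT, minus strand) at 2 bases.

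Few Sox2 sites were shared between the days. Of the day 1 sites, 10.1% (9.10 to 11.2) were kept, and of the day 5 sites 12.3% (11.1 to 13.6) had been present at day 1. At positions 10 kb to either side of the day 1 sites, 0.0463% had a day 5 summit within 100 bp. The summits of kept pairs lay a median of 38 bp apart (quartiles 18.5 and 64.5 bp). A further 105 day 1 sites had a day 5 summit 101 to 250 bp away, and 34 had one 251 to 1000 bp away. With a limit of 50 bp the kept share was 6.17%, and with 250 bp it was 13.3%.

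**Figure D1:**
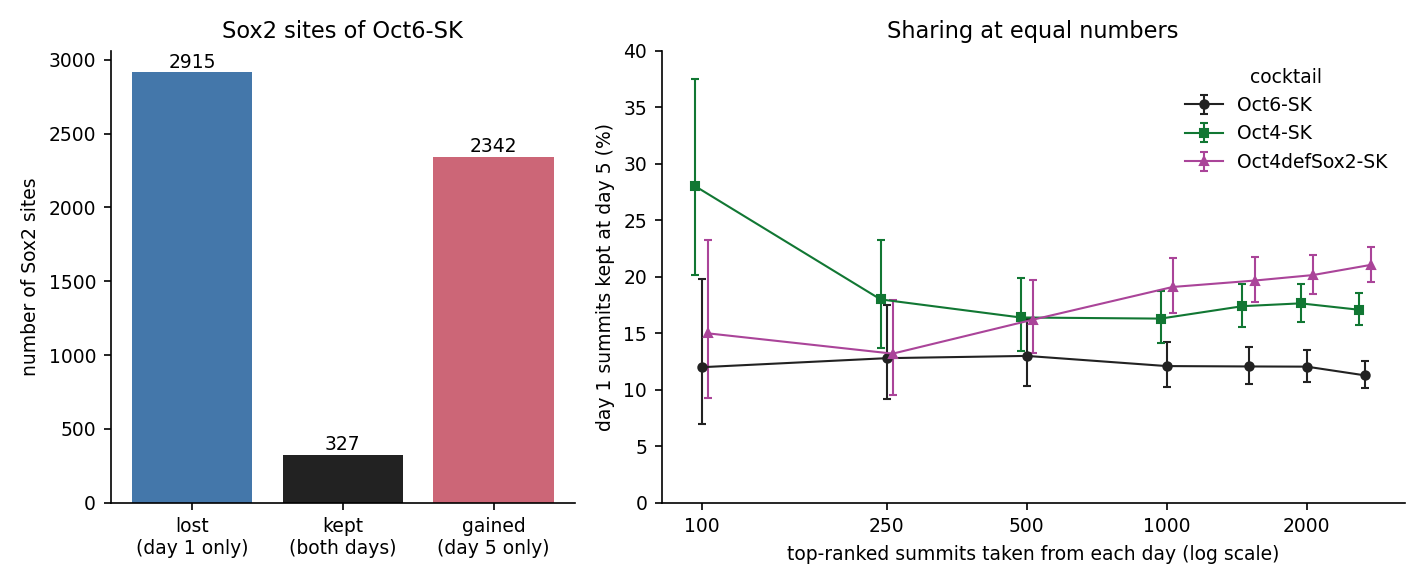
Left, number of lost, kept and gained Sox2 sites of Oct6-SK (bars, 2915, 327 and 2342). Right, percent of the top-ranked day 1 Sox2 summits with a day 5 summit within 100 bp, against the number of top-ranked summits taken from each day (log scale), for 3 cocktails; lines join points with 95% Wilson intervals and points are moved slightly sideways. Oct6-SK stayed between 11.3% and 13%.

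Each summit has a score, the −log10 of its p-value in peak calling, which ranks sites within a library but is not comparable between libraries. Kept sites ranked above lost ones at day 1, with a median score of 9.33 (quartiles 7.03 and 12.1) against 6.98 (5.58 and 8.59). At day 5 kept sites had a median of 11.1 (8.18 and 17.6) and gained sites 8.15 (6.53 and 11.2). When the day 1 sites were ranked by score and cut into 5 groups of equal size, 23.1% (20.03 to 26.5) of the strongest group and 4.78% (3.39 to 6.71) of the weakest were kept. At day 5, 25.1% (21.6 to 28.9) of the strongest group and 6.19% (4.44 to 8.57) of the weakest had a day 1 summit. Strong day 1 sites were still mostly lost, and the highest lost score, at a site 5.61 kb from Galnt1, was 26.9. Among the 327 kept sites the ranks of the 2 days were only weakly related, with a Spearman correlation across sites of 0.18, which describes sites of the same libraries and is no test.

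**Figure D2:**
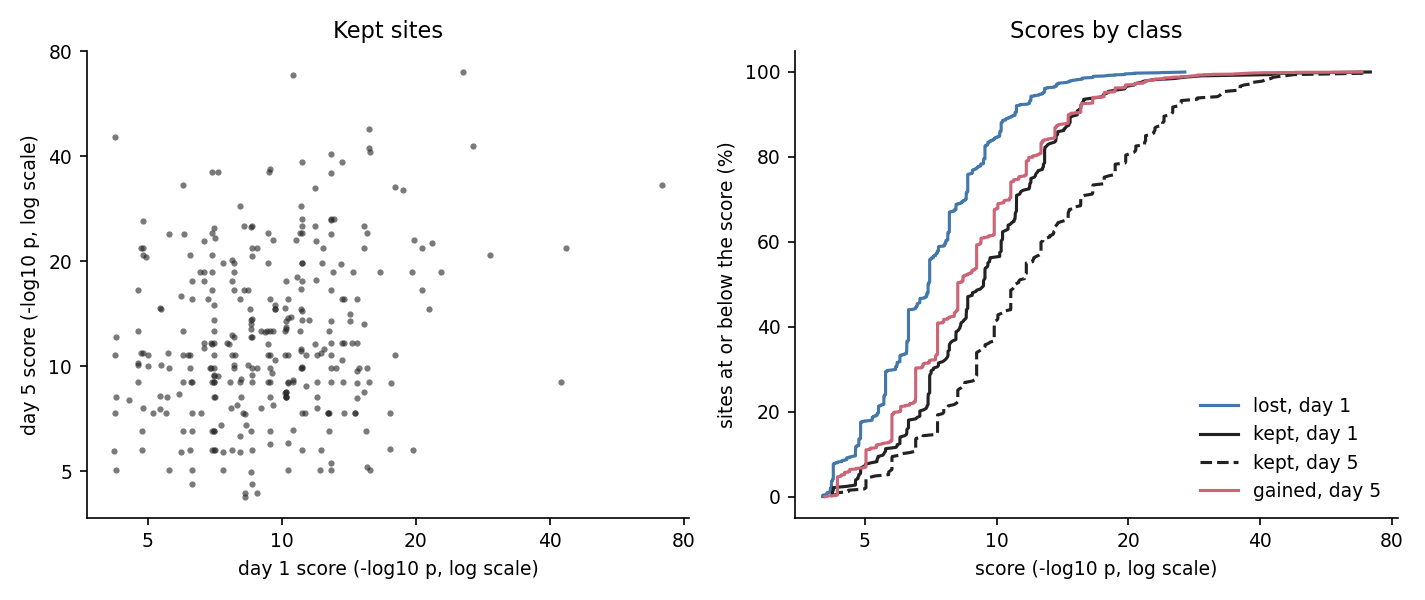
Left, day 5 score against day 1 score of the 327 kept sites, both as −log10 p on log axes; the scores rank sites within a day and their sizes are not comparable between the days. Right, cumulative percent of sites at or below a score, on a log axis, for lost and kept sites at day 1 and for kept and gained sites at day 5. The lost curve lies to the left of the kept curve at day 1, with medians of 6.98 and 9.33.

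Equal numbers of top-ranked summits gave nearly the same low sharing at every depth of the ranking. Of the 100 strongest day 1 summits, 12 were within 100 bp of one of the 100 strongest day 5 summits. Of the strongest 500, 65 were shared, which left 435 lost and 435 gained. Of these 435 lost sites, 70 had a weaker day 5 summit further down the list, and 63 of the 435 gained sites had a weaker day 1 summit. Of the strongest 1000 and 2000, 121 and 241 were shared. With 2669 summits from each day, 301 (11.3%, 10.1 to 12.5) were kept, 2368 lost and 2368 gained.

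Retention in Oct6-SK was set beside that of the other cocktails, whose lists differ in length. On the full lists Oct4-SK kept 7.23% (6.83 to 7.65) of 15219 day 1 sites and Oct4defSox2-SK kept 32.7% (31.5 to 33.9) of 5793, so that Oct6-SK was 2.86 percentage points (1.78 to 4.01) above Oct4-SK and at −22.6 points (−24.2 to −20.99) from Oct4defSox2-SK. Counted from day 5, the share of sites present at day 1 was 19.01% (18.02 to 20.04) for Oct4-SK and 8.79% (8.42 to 9.18) for Oct4defSox2-SK, so that the 12.3% of Oct6-SK lay between them in the opposite order. The order against Oct4-SK of the day 1 sites kept depended on list length. With the 2669 top-ranked summits of every library, Oct4-SK kept 17.1% (15.7 to 18.6) and Oct4defSox2-SK kept 21.1% (19.6 to 22.6), so that Oct6-SK was lowest, at −5.81 points (−7.67 to −3.94) from Oct4-SK and −9.78 points (−11.7 to −7.82) from Oct4defSox2-SK. Among the 100 strongest summits 28 were kept in Oct4-SK and 15 in Oct4defSox2-SK, against 12 in Oct6-SK.

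The single Sox word, the element of the protein that was precipitated, was the most frequent of the 10 motifs searched at these summits. It was in 40.4% (35.2 to 45.8) of kept, 33.5% (31.6 to 35.5) of gained and 25.2% (23.7 to 26.8) of lost windows of 201 bp. In windows 2 kb to either side it was in 9.02%, 7.69% and 8.37%. Kept sites exceeded lost sites by 15.2 points (9.73 to 20.8) and gained sites exceeded lost sites by 8.30 points (5.83 to 10.8). Among windows with 35 to 45% GC the gained and lost sites differed by 2.87 points (−0.56 to 6.31), an interval that includes 0. Where a word was present, its median distance from the summit was 30.5 bp in kept, 38 bp in gained and 40 bp in lost sites.

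SoxOct was rarer, and its shares in lost and gained sites lay within counting error of each other. It matched 6.73% (4.48 to 9.98) of kept sites, 4.39% (3.71 to 5.2) of lost and 4.06% (3.33 to 4.93) of gained sites, with 1.83%, 1.25% and 1.05% in the windows 2 kb away. The difference between kept and lost sites was 2.34 points (−0.05 to 5.66) and that between gained and lost sites −0.33 points (−1.42 to 0.78). Both intervals include 0, which does not show that the shares were equal. The kept minus lost interval excluded 0 under 5 of 11 alternatives, at 4.13 points (0.91 to 8.87) with sharing within 50 bp, 2.58 (0.05 to 6.12) at equal numbers of summits, 2.68 (0.26 to 6.07) with 1 summit per peak, 4.43 (1.00 to 9.49) among windows of 35 to 45% GC and 2.44 (0.02 to 5.81) without the coding exons of the factors. It was smallest with at most 1 mismatch, at 0.23 points (−0.48 to 1.99), and in windows of 50 bp to each side, at 0.39 points (−1.05 to 2.83). Kept sites exceeded gained sites by 2.67 points (0.26 to 6.00). Where a SoxOct match was present, its median distance from the summit was 58.5 bp in kept, 41.5 bp in lost and 34 bp in gained sites. Of the 22 kept matches, 4 lay within 25 bp of the summit.

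The octamer, MORE and MORE+1 were more frequent among lost than among gained sites. They were counted whether or not the window also held a SoxOct match, so they are not elements of POU factors alone. The octamer (ATGCAAAT) was in 4.25% (3.58 to 5.05) of lost, 2.73% (2.15 to 3.47) of gained and 2.45% (1.24 to 4.75) of kept windows, against 1.80%, 1.41% and 2.14% at 2 kb. MORE+1 was in 1.10% of lost sites (32 of 2915), 0.30% of gained sites (7 of 2342) and 1.22% of kept sites (4 of 327), against 0.19%, 0.26% and 0.15% at 2 kb. MORE was in the same numbers of lost and gained sites, 32 and 7, and in 1 kept site, against 0.65%, 0.58% and 0.76% at 2 kb. The gained minus lost difference was −1.52 points (−2.51 to −0.52) for the octamer and −0.80 points (−1.27 to −0.35) for MORE+1. In windows of 50 bp to each side both intervals included 0, at −0.50 points (−1.21 to 0.22) and −0.23 points (−0.57 to 0.11), and they did so among windows of 35 to 45% GC, at −1.36 points (−2.77 to 0.07) and −0.24 points (−0.77 to 0.28), and among sites in another Sox2 library, at −0.54 points (−2.02 to 0.80) and −0.53 points (−1.30 to 0.04).

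Motifs of other factors differed among the classes too. AP-1 (TGACTCA or TGAGTCA), the element of Fos and Jun proteins that are abundant in fibroblasts, was in 16.5% (12.9 to 20.9) of kept, 11.9% (10.8 to 13.2) of lost and 9.39% (8.28 to 10.6) of gained sites, with 3.52%, 2.98% and 3.61% at 2 kb. The gained minus lost difference was −2.54 points (−4.20 to −0.86) and the kept minus lost difference 4.58 points (0.74 to 9.13). Among sites in another Sox2 library the gained minus lost difference was −4.76 points (−7.58 to −2.04), and at 35 to 45% GC −4.19 points (−6.61 to −1.74). The kept minus lost interval included 0 at equal numbers of summits (3.65 points, −0.34 to 8.42), for scores of at least 6 (3.83, −0.52 to 9.06), among windows of 35 to 45% GC (4.33, −1.0 to 10.9) and in windows of 50 bp to each side (2.24, −0.60 to 5.97). The KLF word (GGGCGTGGC or GGGTGTGGC), which Klf4 of the cocktail recognizes, was in 1.49% (1.08 to 2.07) of gained, 1.22% (0.48 to 3.10) of kept and 0.21% (0.09 to 0.45) of lost sites, with 0.75%, 0.15% and 0.29% at 2 kb. Gained sites exceeded lost sites by 1.29 points (0.81 to 1.88), and by 0.59 points (0.05 to 1.26) among windows of 35 to 45% GC. In windows of 50 bp to each side the KLF difference was 0.62 points (0.29 to 1.06). CTCF matches, of the insulator protein, were in 1.54% of gained, 1.22% of kept and 0.55% of lost sites, at or below the 1.99%, 1.22% and 1.15% of the windows 2 kb away. TEAD words (CATTCCA) were in 5.66% of lost, 5.2% of kept and 6.11% of gained sites, with 3.72%, 3.36% and 3.46% at 2 kb. RUNX words (AACCACA) were in 6.69%, 7.34% and 5.68% of lost, kept and gained sites, with 4.51%, 4.89% and 4.01% at 2 kb. All pairwise differences of TEAD and RUNX shares had intervals that include 0.

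**Figure D3:**
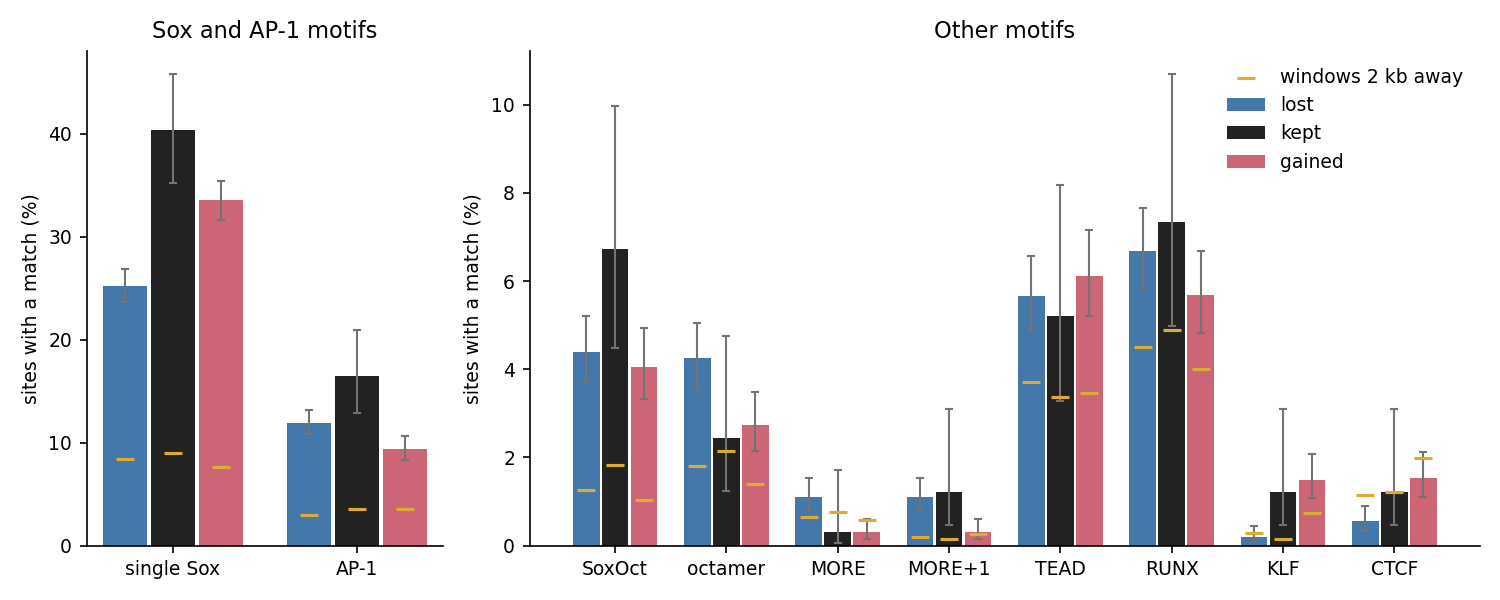
Percent of lost, kept and gained Sox2 sites of Oct6-SK with a motif match within 100 bp of the summit (bars, with 95% Wilson intervals), and percent of windows 2 kb to either side with a match (yellow ticks), for 10 motifs; the panels have different axes. The single Sox word is in 25.2% of lost, 40.4% of kept and 33.5% of gained sites.

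Base composition moved with the day. The median GC content of the 201-bp windows was 35.8% (quartiles 32.3 and 39.8) at lost, 39.8% (36.3 and 43.8) at kept and 43.3% (39.3 and 47.8) at gained sites. Windows 2 kb away had medians of 39.8%, 41.8% and 43.3%, so that lost sites lay below their surroundings and gained sites level with them. The other cocktails had the same direction, with medians in Oct4-SK of 39.3% (day 1) and 44.8% (day 5), and in Oct4defSox2-SK of 38.8% and 44.3%, against 36.3% and 42.8% over all Oct6-SK sites. The part of base composition in the motif and promoter differences was not tested beyond the values at 35 to 45% GC.

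Gained sites lay closer to genes than lost sites. The median distance to the nearest start of a protein-coding gene was 123 kb for lost, 95.9 kb for kept and 53.7 kb for gained sites. Promoters, defined as within 1 kb of an annotated transcription start, held 3.57% (2.95 to 4.30) of lost, 7.95% (5.48 to 11.4) of kept and 8.07% (7.03 to 9.24) of gained sites. The gained minus lost difference was 4.50 points (3.23 to 5.83), and 1.68 points (0.33 to 3.11) among windows of 35 to 45% GC. Intergenic sites made up 50.1% of lost, 42.8% of kept and 39.9% of gained sites, and introns 43.5%, 44.6% and 48.5%. Coding exons held 13 lost, 5 kept and 21 gained sites outside promoters. The X chromosome (171 Mb) carried 56 of the 5584 sites and chromosome 1 (195 Mb) carried 483.

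**Figure D4:**
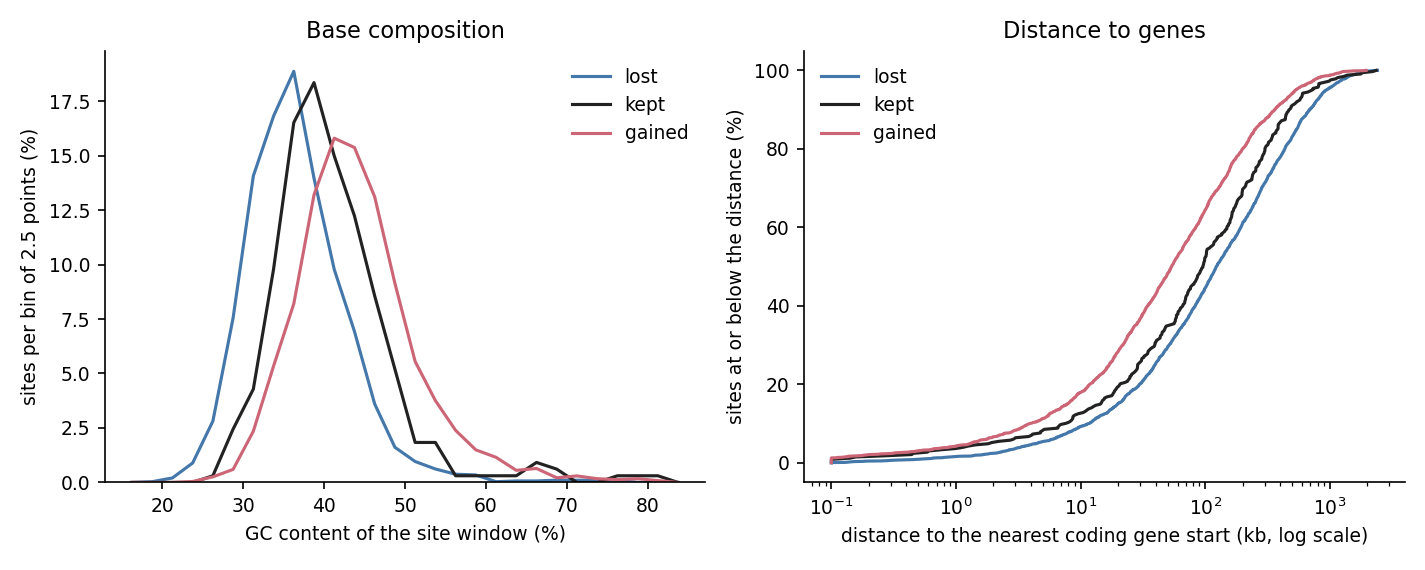
Left, distribution of GC content of the 201-bp windows in bins of 2.5 points, as percent of the sites of each class. Right, cumulative percent of sites at or below a distance to the nearest coding gene start, in kb on a log axis that starts at 0.1 kb. Medians of GC content are 35.8% for lost, 39.8% for kept and 43.3% for gained sites, and median distances are 123, 95.9 and 53.7 kb.

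On the full lists, most kept sites had a Sox2 summit in at least 1 library of another cocktail. A summit of at least 1 of the 4 other Sox2 libraries lay within 100 bp of 91.7% (88.3 to 94.3) of kept, 65.3% (63.3 to 67.2) of gained and 34.8% (33.1 to 36.5) of lost sites. All 4 had a summit at 23.9% of kept, 4.48% of gained and 1.27% of lost sites. Sites that no other of the 11 libraries shared were 3.06% of kept, 24.5% of gained and 40.5% of lost sites. At positions 10 kb away the 4 Sox2 libraries had a summit at 0.02% to 0.92% of sites. The shares depend on list length. With the 2669 strongest summits of each, Sox2 in Oct4-SK was at 46.2% of kept sites at day 1 and 50.5% at day 5. Sox2 in Oct4defSox2-SK was then at 42.2% and 50.2% of kept sites. Kept sites also had higher scores than lost sites at day 1.

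Gained sites were bound by Sox2 in the other cocktails at day 5 more often than lost sites. Sox2 in Oct4-SK at day 5 was found at 33.1% (31.2 to 35.02) of gained and 5.08% (4.34 to 5.93) of lost sites, a difference of 28.0 points (25.9 to 30.1). At day 1 of Oct4-SK it was at 20.5% (19.1 to 22.1) of lost and 22.6% (20.9 to 24.3) of gained sites, a lost minus gained difference of −2.04 points (−4.29 to 0.19). That interval includes 0, whereas with sites counted as shared within 50 bp the difference was −2.89 points (−4.73 to −1.06) and within 250 bp it turned to 1.41 points (−1.17 to 3.97). The day 5 difference was 17.1 points (15.3 to 18.9) within 50 bp. In Oct4defSox2-SK, Sox2 at day 5 was at 50.5% of gained and 13.1% of lost sites, and at day 1 at 17.5% and 18.01%. These lists differ in length. With the 2669 strongest summits of each, Sox2 in Oct4-SK was at 25.4% of gained and 3.19% of lost sites at day 5 and at 12.0% and 10.6% at day 1, and Sox2 in Oct4defSox2-SK was at 28.2% and 4.70% at day 5 and at 10.3% and 12.2% at day 1.

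Lost and gained sites shared with another Sox2 library held the single Sox word more often than unshared ones. Among lost sites with a summit in another Sox2 library, 33.8% (31.0 to 36.8) of 1014 held the single Sox word, against 20.6% (18.9 to 22.5) of the 1901 without. Among gained sites the shares were 39.5% (37.1 to 42.0) of 1529 and 22.3% (19.5 to 25.2) of 813. Among kept sites they were 41% and 33.3%, a difference of 7.67 points (−11.9 to 23.4) whose interval includes 0. The gained minus lost difference was 5.68 points (1.85 to 9.45) among shared sites and 1.64 points (−1.67 to 5.11) among the others. SoxOct matches were in 4.44% of shared and 4.37% of unshared lost sites and in 4.12% and 3.94% of gained sites, differences of 0.07 points (−1.43 to 1.74) and 0.18 points (−1.62 to 1.78). AP-1 words were in 16.1% of shared and 9.73% of unshared lost sites, a difference of 6.34 points (3.78 to 9.04), and in 11.3% and 5.78% of gained sites, a difference of 5.53 points (3.18 to 7.73).

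Kept sites also led in most of the Oct4 libraries. Oct4 in Oct4-SK at day 1 had a summit at 25.4% (20.97 to 30.4) of kept, 11.5% (10.4 to 12.7) of lost and 8.63% (7.55 to 9.83) of gained sites. At day 5 it was at 14.4% of kept, 7.86% of gained and 2.85% of lost sites, and at day 7 at 8.87%, 6.06% and 1.17%. These lists held 8199 summits at day 1, 4846 at day 5 and 3614 at day 7, so shares of different days are not directly comparable. Gained sites differed from lost sites by −2.90 points (−4.52 to −1.26) in the day 1 list and by 5.01 points (3.79 to 6.29) in the day 5 list. In the day 7 list kept sites differed from gained sites by 2.81 points (−0.02 to 6.49), an interval that includes 0. Oct4defSox2 in its own cocktail at day 1, a list of 31060 summits, was at 70.03% of kept, 40.3% of gained and 34.4% of lost sites. At day 5, with 1034 summits, it was at 1.28% of gained, 1.22% of kept and 0.41% of lost sites. Oct4 S151M, an Oct4 with the Oct6 residue at a position that governs pairing on MORE, was at 47.7% of kept, 27.7% of lost and 23.4% of gained sites. The list of Oct4 S151M held 101151 summits, more than any other. Oct6 M151S, the reciprocal mutant and the only Oct6 antibody library analysed here, was at 29.4% of kept, 11.3% of lost and 10.2% of gained sites. Its summits go down to a score of 2.3, below the 4.00 of the other lists.

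**Figure D5:**
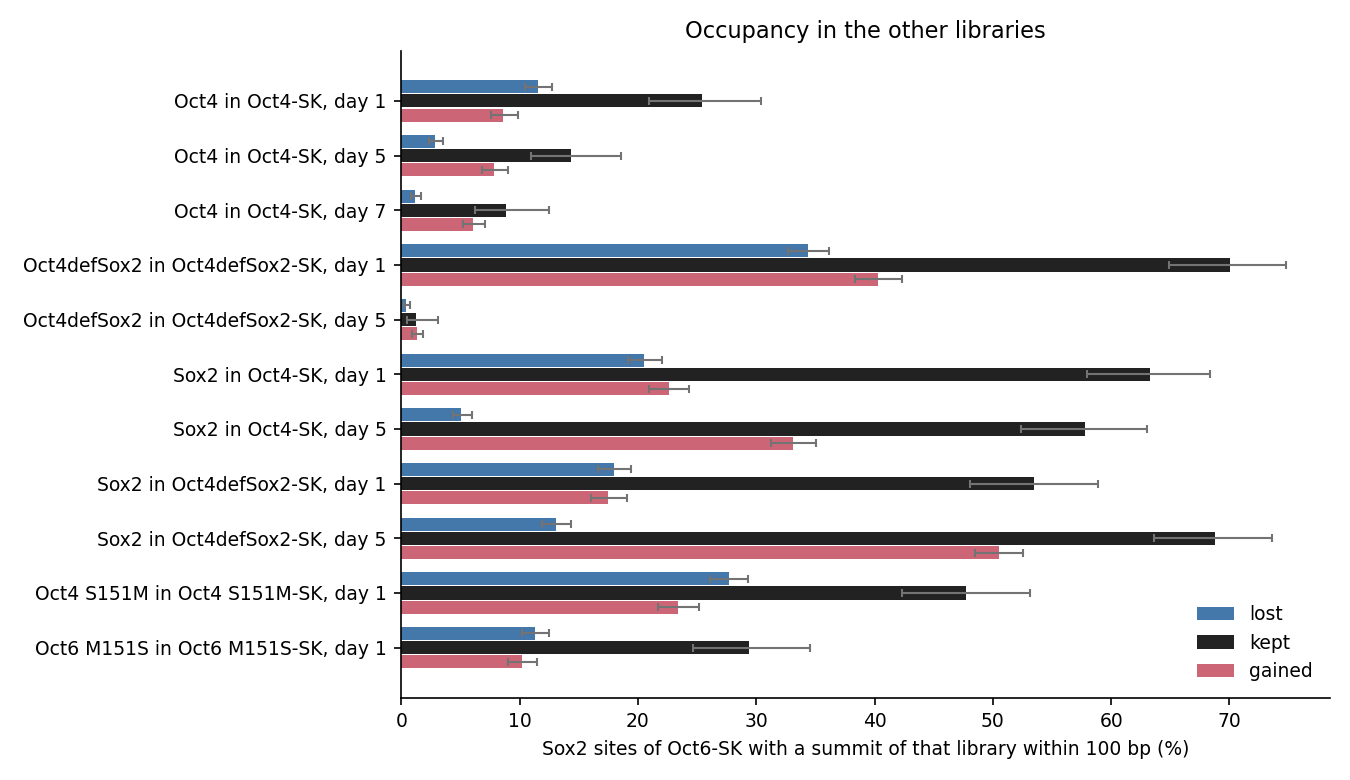
Percent of lost, kept and gained Sox2 sites of Oct6-SK with a summit within 100 bp in each of the 11 other libraries (bars, with 95% Wilson intervals). Sox2 of Oct4-SK at day 5 is at 5.08% of lost, 57.8% of kept and 33.1% of gained sites.

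Sites with summits of an Oct4 antibody library and the Oct6 antibody library besides Sox2 were 24.8% (20.4 to 29.7) of kept, 7.62% (6.71 to 8.64) of lost and 7.39% (6.40 to 8.52) of gained sites. Without them 7.96% (7.04 to 9.0) of day 1 sites were kept. The part of enrichment that does not depend on the antibody was not tested.

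The highest scoring kept site lay in a coding exon of Pou5f1, the gene of Oct4, 0.275 kb from its start (chr17:35506193-35506393), with scores of 71.5 at day 1 and 33.0 at day 5. All 4 other Sox2 libraries had a summit there, with scores from 28.0 to 281. The cells of all these libraries carry the GFP transgene driven by Oct4 sequence, and whether its reads enter the scores at this site was not tested. The kept site near Sox21, a Sox gene of neural progenitors, scored 25.5 at day 1 and 69.8 at day 5. The kept site near Mobp, a myelin gene, scored 10.6 and 68.4, and that in the Bcas3 intron 26.9 and 42.9. The fifth was in the coding exon of Pou3f1, the gene of Oct6, 1.94 kb from its start (chr4:124658645-124658845), with 43.6 and 21.8.

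Pou3f1 held 3 kept sites and Sox2 1 kept and 1 lost site within their coding exons. The Pou3f1 sites, at 1.14, 1.42 and 1.94 kb from the start, scored 14.7, 21.7 and 43.6 at day 1 and 15.6, 22.6 and 21.8 at day 5. At the first and the last of these Oct6 M151S had scores of 112 and 344. Sox2 had summits there in cocktails without Oct6 too, in Oct4-SK at day 5 with scores of 8.19 and 17.5. At the last, Sox2 in Oct4defSox2-SK scored 13.8 at day 1 and 48.0 at day 5. At the second, none of the other libraries had a summit. The kept Sox2 site, at 0.454 kb from the start, scored 17.98 and 32.6, and the lost one, 0.282 kb from the start, scored 15.0. The viruses of the Oct6-SK cells carry the coding sequences of Oct6 and Sox2, and reads from them and from the genes cannot be told apart. The same holds for Pou5f1 in the compared cocktails whose viruses carry Oct4 or a mutant of it. Klf4, the third factor, had no site within 50 kb of its start. In all, 6 of 5584 sites lay in coding exons of Sox2, Klf4, Pou3f1 or Pou5f1, and none of the windows held any of the 10 motifs.

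Besides the site near Galnt1, the 5 strongest lost sites were those near Cd180 (score 26.7) and in the Adgrv1 intron (23.8), one in an intron of the noncoding gene Gm47214 at chr9:14963658-14963858 (25.3) and one at chr8:30532916-30533116, 556 kb from Dusp26 (24.9). The site near Cd180 also had summits in all 4 other Sox2 libraries and in 7 of 11 libraries, and the others in 1 or 2 of the Sox2 libraries. The strongest gained site (68.4) was 6.32 kb from Sox21, at chr14:118230608-118230808, which is 245 bp from the kept site there. The gained site 409 kb from Rag2 scored 63.3 and a site in a coding exon of Cpa6, at chr1:10476934-10477134, scored 37.5. The other two of the strongest 5 were repeats, at chr2:98666705-98666905 in a coding exon of Gm10800 (48.1, with 97.0% of the window repeat masked) and at chr9:35305303-35305503 in an intron of Gm33838 (39.4, 100% masked). Of all sites, 160 lost, 4 kept and 169 gained ones had windows masked at 50% or more.

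Genes of 10 lists were searched for sites within 50 kb of their start. Of 21911 protein-coding genes, 6.22% had a lost site in this distance, 0.867% a kept site and 9.29% a gained site, and 15.3% had any of them. The lists held between 8.33% and 30.4% of genes with a site, which rests on 1 to 7 genes a list.

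In the pluripotency network 5 of 24 genes (20.8%) had a site. Sox2 and Pou5f1 had the kept sites already described. Tfcp2l1, a transcription factor of naive pluripotent cells, gained a promoter site at 0.068 kb from its start with a score of 5.77, which no other library shared. Fgf4, a growth factor gene, gained 2 intergenic sites 25.2 and 23.6 kb upstream, with scores of 6.53 and 14.4. Zfp42 had a lost site (6.29) and a gained site (11.7) 42.1 and 42.2 kb from its start, close to each other but beyond 100 bp. Nanog, Esrrb, Klf4, Sall4 and Lin28a were among the 19 genes with no site.

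Sox family genes had a site at 5 of 17 (29.4%). Sox17, an endodermal and endothelial factor, had 1 lost, 1 kept and 2 gained sites in its coding exons, with scores of 22.2 for the lost site, 10.2 and 14.7 for the kept site and 36.0 and 18.7 for the gained sites. The lost Sox17 site lies between the gained ones, at chr1:4492297 against chr1:4492157 and chr1:4492508, so the classes there turn on distances of 140 and 211 bp. Sox13, a SoxD factor, gained 3 intronic sites at 26.5, 23.8 and 12.6 kb with scores of 34.7, 4.82 and 29.9. Sox21 had 1 lost site besides those already described, 24.8 kb from its start, with a score of 7.03 and a single Sox word. Sox4 and Sox7 had 1 lost site each, with scores of 4.84 and 5.2. Among POU genes, Pou3f1 had the 3 kept sites, Pou4f1 a lost site (6.29) and Pou1f1 a gained site (6.52), so 3 of 13 genes (23.1%) had a site.

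Mesenchymal genes had sites at 7 of 23 (30.4%). Cdh11, Thy1, Col1a2 and Col3a1, genes of fibroblast adhesion and matrix, had 6 lost sites with scores from 4.69 to 8.21. Vim, Fn1 and Col1a1 had gained sites scoring 9.0, 8.38 and 5.77. Of 21 epithelial genes 5 (23.8%) had a site. Krt8 and Krt18 shared 1 lost site (6.01), Esrp2 had a lost site (5.54), Epcam a kept site (4.24 and 8.15) and Dsp a gained site (9.88).

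Wnt pathway genes, a list chosen with earlier results of these data known, had sites at 6 of 20 (30.0%), against 15.3% of all protein-coding genes. All 6 had a gained site (30.0% of the list, against 9.29% of all protein-coding genes). These were the transcription factors Lef1 (7.33), Tcf7 (7.33) and Tcf7l2 (12.6), the receptors Fzd1 (9.0) and Lgr4 (9.0) and the ligand Wnt5a (7.33), and Tcf7 and Fzd1 had a lost site as well (6.24 and 4.89). The gained Tcf7 site, 3.56 kb upstream, held a SoxOct match and an octamer. Neural progenitor genes had sites at 6 of 24 (25%). Neurog2, Lhx2, Dll1 and Ptch1 had gained sites with scores from 4.33 to 8.15, Meis1 had a kept site (8.59 and 5.77) and Fabp7 a lost site (9.29).

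The TGF-beta pathway had sites at 2 of 18 genes (11.1%), a lost intronic site of Tgfbr1 (6.29) and a gained intronic site of Tgfbr2 (16.6), genes of the pathway's receptors. The Tgfbr1 site held SoxOct, octamer, single Sox and AP-1 matches together. AP-1 factor genes had sites at 2 of 11 (18.2%), gained intronic sites near Fosb (12.1) and Maff (11.2) that both held the single Sox word. Endothelial genes had 1 of 12 (8.33%), a lost site of Pecam1 (5.58).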

How the data were processed

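Sox2 ChIP-seq libraries of Oct6-SK cells at day 1 and day 5 were analysed with the 11 other summit lists of the series. The authors aligned reads to mm10 with Bowtie2 2.2.5 and called summits with MACS2 per library. The deposited score is the −log10 of the p-value at a summit, neither adjusted nor scaled between libraries and without read counts. Positions were checked against GRCm38 (0 summits past a chromosome end) and 4 day 5 summits off the main chromosomes were left out. Motifs were matched as fixed words in GRCm38 windows of 201 bp and genes taken from GENCODE M21. Differences were read as past counting error when their 95% interval excluded 0. Named sites were the 5 highest scoring of each class (kept sites by the mean of both scores, 1 per 10 kb), and genes came from 10 lists. Members, motifs and lists were chosen with earlier results of these data known. The alternatives were sharing distances of 50 and 250 bp, a minimum score of 6, equal summit numbers, 1 summit per peak, no sites of all 3 antibodies, 1 SoxOct mismatch, 50 bp around summits for motifs and 5 kb for promoters. After seeing the data, GC content of 35 to 45%, leaving out coding exons of the factors or repeat-masked windows, and only sites in another Sox2 library were added. Calculations used Python 3.11.15, numpy 2.4.6, pandas 2.3.3 and pysam 0.24.0 and were tested on simulated data.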

Additional observations from a re-analysis of the deposited data

Results flagged for a closer look

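The share of Sox2 sites with the single Sox word moved in opposite directions in the full lists of Oct6-SK and Oct4defSox2-SK. The day 5 minus day 1 difference was 7.84 percentage points (5.48 to 10.2) in Oct6-SK and −4.29 points (−5.60 to −3.00) in Oct4defSox2-SK. Each cocktail had 1 library per day and the difference between them was not tested. In Oct4-SK it was 13.6 points (12.3 to 15.0). The lists went from 3242 to 2669 summits in Oct6-SK and from 5793 to 21551 in Oct4defSox2-SK. With the 2669 top-ranked summits of every library, an alternative chosen after seeing the data, the opposite directions were lost and the difference was 5.99 points (3.50 to 8.48) in Oct6-SK, 8.73 points (6.15 to 11.3) in Oct4defSox2-SK and 10.2 points (7.65 to 12.8) in Oct4-SK.

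At day 5, 4 Sox2 summits of Oct6-SK lay on sequences outside chromosomes 1 to 19, X and Y, against 0 at day 1.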

How the results depend on the processing

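Of 109 values that 11 results took under the alternatives, 85 stayed within the 95% interval of the value reported. Of the differences whose interval excluded 0, 1 changed direction. The kept share of Oct6-SK minus that of Oct4-SK was 2.86 points on the full lists and −5.81 at equal numbers, and it was 1.78 without sites of all 3 antibodies. The kept share of day 1 sites was 6.17% at 50 bp, 13.3% at 250 bp, 11.4% for scores of at least 6, 11.3% at equal numbers and 7.96% without sites of all 3 antibodies. The kept share of day 5 sites was 7.49% at 50 bp, 16.1% at 250 bp and 9.69% without sites of all 3 antibodies. The kept share of Oct6-SK minus that of Oct4defSox2-SK was −14.0 points at 50 bp, −30.6 at 250 bp, −9.78 at equal numbers and −19.9 at 35 to 45% GC. The single Sox difference between gained and lost sites was 2.87 points at 35 to 45% GC, 5.82 in windows of 50 bp to each side and 5.68 among sites in another Sox2 library. The promoter difference was 1.68 points at 35 to 45% GC and 9.98 with promoters of 5 kb. For Sox2 of Oct4-SK at day 5 the gained minus lost difference was 17.1 points at 50 bp, 35.9 at 250 bp, 22.0 at equal numbers and 21.7 at 35 to 45% GC. At day 1 the lost minus gained difference changed sign, from −2.04 to 1.41 points at 250 bp, as did the SoxOct difference between gained and lost sites, from −0.33 to 0.49 points at 35 to 45% GC, with intervals that include 0. The cause of these changes was not tested. All values of both SoxOct differences and of the single Sox difference between kept and lost sites stayed within their intervals, although that of SoxOct between kept and lost sites excluded 0 under 5 of 11 alternatives. No paired analysis was possible because each group had 1 library. Read depth was not compared, so a site absent from a list may be bound below its threshold.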
